A study of Homo sapiens with 20 samples.

Results

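The mRNAs of 41 nuclear genes that encode subunits of respiratory complexes II, III and IV and of ATP synthase were followed in RNA granules and exosomes of HEK293 cells, a line derived from human embryonic kidney. The genes were taken by symbol from a fixed list, and their levels are sums over all transcripts of each gene. All 41 were found among the 62266 named genes of the files, 4 of complex II, 9 of complex III, 12 of complex IV and 16 of ATP synthase. Membership did not use measured values.

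The total RNA libraries formed 4 groups of 5: granule cores of HD-induced cells, granule cores of control cells, exosomes of HD-induced cells and exosomes of control cells. HD stands for Huntington's disease, and the sources at hand do not say how it was induced in these cells. All groups came from the same cell line, and the study calls the libraries of a group biological replicates. Exosomes are small vesicles that cells release, and RNA granules are membraneless bodies in which RNAs and proteins gather.

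Complexes II, III and IV pass electrons from succinate and ubiquinol to oxygen in the inner mitochondrial membrane, and complexes III and IV pump protons as they do so. ATP synthase lets the protons flow back through a rotating ring and uses that turn to make ATP in its catalytic head. Most subunits are encoded in the nucleus, translated in the cytoplasm or at the mitochondrial surface and imported, so their mRNAs are cytoplasmic RNAs that granules and vesicles can take up.

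Depth differed between the groups. HD granule libraries held 26.96 to 35.8 M estimated reads and control granule libraries 17.4 to 38.4 M. HD exosome libraries held between 1074 reads and 14.4 M, and control exosome libraries 8.99 to 15.6 M. HD exosome 4, the library of 1074 reads, had no read on any of the 41 genes. HD exosome 2 had 86.6% of its reads on entries without a gene name, which lowers the TPM of all named genes. HD granule 3 had the lowest share of reads on the 41 genes of all granule libraries. The granule and exosome comparison in HD-induced cells is given with and without these 3 libraries. Of the HEK293 markers, 6 of 8 averaged at least 1 TPM in each group, PAX2 stayed below 1 TPM in every library, and NEFM was listed at 0 in all HD granule libraries. The summed HEK293 markers ran from 69.1 to 548 TPM in HD granules (the highest in HD granule 3) and 62.8 to 119.8 TPM in control granules, against 29.1 to 338 TPM in HD exosomes and 219 to 279 TPM in control exosomes. The 11 keratinocyte markers summed to 2.14 to 9.39 TPM in HD granules and 1.78 to 3.28 TPM in control granules, against 4.29 to 231 TPM in HD exosomes and 3.50 to 17.1 TPM in control exosomes. FLG and LORICRIN were listed at 0 in all granule libraries, and also FLG in all HD exosome libraries and LORICRIN in all control exosome libraries. The 10 blood cell markers summed to 3.79 to 42.8 TPM in HD granules and 5.26 to 15.4 TPM in control granules, against 0 to 2789 TPM in HD exosomes and 13.7 to 66.6 TPM in control exosomes. PPBP and PF4 were listed at 0 in all libraries of both granule groups, and also PPBP in all exosome libraries and PF4 in all HD exosome libraries. Neither the origin of these keratinocyte and blood cell marker transcripts nor their part in the results below was tested.

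The 41 mRNAs took up a larger share of the reads of granule libraries than of exosome libraries of the same cells, with HD granule 3 as the exception. Their share of all reads on named genes was 0.948, 1.58, 0.422, 1.38 and 1.55% in HD granules 1 to 5, and 0.737, 0.957, 1.01, 1.26 and 1.07% in control granules 1 to 5. In exosomes the share was 0.663, 0.606, 0.739, 0 and 0.698% in HD libraries 1 to 5, and 0.643, 0.671, 0.665, 0.656 and 0.681% in control libraries 1 to 5. All control granule libraries lay above all control exosome libraries, and HD granule 3 was the one granule library below every exosome library with reads on these genes. On the TPM scale, which takes length into account, the place of this library was another. The summed TPM of the 41 was 4769, 7968, 4299, 6842 and 8693 in HD granules 1 to 5, against 3318, 460.3, 4068, 0 and 5065 in HD exosomes 1 to 5, so HD granule 3 lay above all HD exosome libraries but HD exosome 5. All values here are relative to a library, so a smaller number of particles that carry an mRNA and less of it per particle cannot be told apart.

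In TPM, which gives each mRNA as a share of all transcripts after scaling by length, the order of the genes differed between the compartments. COX6A1, the broadly expressed form of a small complex IV subunit, had the highest mean of the 41 in granules, with 1234.5 ± 705 TPM in HD granules and 913 ± 335 TPM in control granules. In exosomes it averaged 139 ± 127 TPM in HD libraries and 128 ± 18.3 TPM in control libraries (SD, n = 5 in each group). ATP5F1B, the catalytic beta subunit of ATP synthase, led in exosomes, with 208 ± 179 TPM in HD and 260.3 ± 28.99 TPM in control libraries, against 115 ± 117 TPM in HD granules and 86.8 ± 23.3 TPM in control granules. HD granule 3 alone, at 323 TPM, set the spread of ATP5F1B in HD granules, and without it (a setting chosen after seeing the data) the mean was 62.4 ± 9.44 TPM (SD, n = 4). The lowest mean in granules was that of UQCRFS1, the Rieske iron-sulfur protein of complex III, with 6.17 ± 3.48 TPM in HD and 6.65 ± 2.25 TPM in control libraries. In exosomes the lowest was ATP5IF1, the inhibitor of ATP hydrolysis by ATP synthase, with 8.60 ± 10.6 TPM in HD and 8.67 ± 2.77 TPM in control libraries. The range from the lowest to the highest mean spanned 200.2-fold in HD granules and 137-fold in control granules, against 24.15-fold in HD exosomes and 30.03-fold in control exosomes. Without HD granule 3 the range in HD granules was 319-fold, and the lowest mean was that of UQCRC1, at 4.4999 TPM. The number of genes with a mean of at least 100 TPM was 23 in HD granules and 19 in control granules, against 10 in each exosome group. The HD exosome means, and so this count, are lowered by HD exosome 4 at 0 TPM and by HD exosome 2. COX6A1 had 159, 21.8, 221, 0 and 294 TPM in HD exosomes 1 to 5, and ATP5F1B had 296, 31.5, 320, 0 and 390 TPM.

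**Figure D1:**
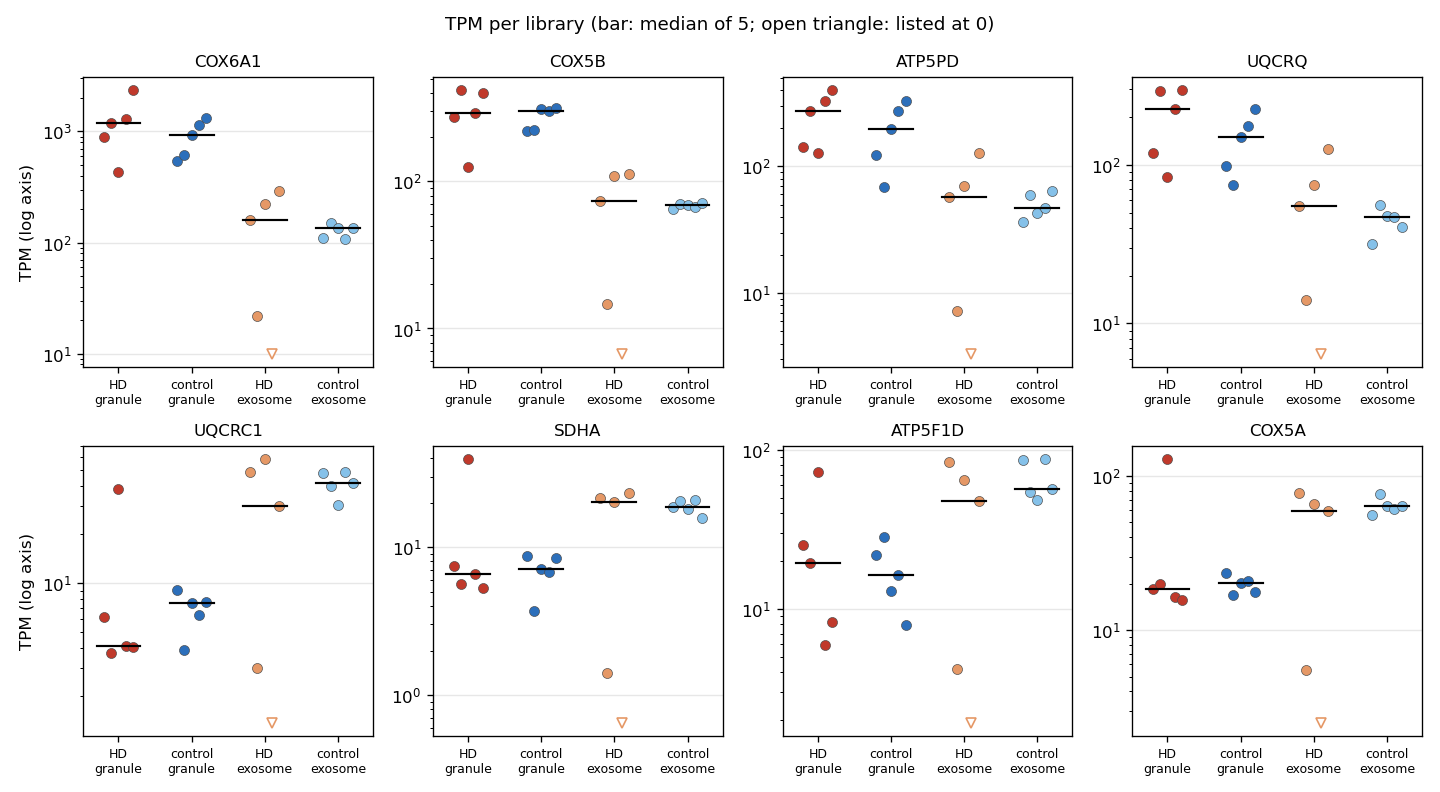
TPM on a log axis in each library for 8 of the 41 genes, by group, with the median of 5 libraries as a bar and values listed at 0 as open triangles. COX6A1, COX5B, ATP5PD and UQCRQ (upper row) lie mostly higher in granules. UQCRC1, SDHA, ATP5F1D and COX5A (lower row) lie lower in granules, apart from HD granule 3 and HD exosomes 2 and 4. HD granule 3 (the middle point of its group) lies within or above the exosome libraries with the most reads in all 4 lower panels. HD exosome 2 lies below every granule library in these panels, and HD exosome 4 is listed at 0.

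Control granules against control exosomes give the comparison of the compartments without the HD treatment, with 5 libraries a side. Control granule 2 had 59.2% of its reads on entries without a gene name, against 24.9 to 36.1% in the other control granules. This lowers the TPM of all named genes in that library. In this comparison 25 of the 41 mRNAs were higher in control granules, 10 were lower and 6 were not called (edgeR quasi-likelihood test, Benjamini-Hochberg adjusted p under 0.05 over 14777 genes). Of all genes tested, 62.4% were called, 30.0% higher and 32.5% lower, so the share of members called higher was above the background and the share called lower was below it. The median log2 fold change was 0.86 over the 41 members and -0.02 over all genes tested. In 19 members every control granule library lay above every control exosome library and in 9 every one lay below, against 23.7% and 25.4% of all genes. The other 13 members overlapped. Values below are CPM, counts scaled to the reads on the genes tested and divided by a TMM factor of each library. They are thus not plain shares of the reads on named genes. In the control comparison these factors ran from 0.9634 (control exosome 1) to 1.115 (control granule 1). Such CPM can be set side by side only within a comparison and not between genes of different length.

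Of the 6 most raised members, 5 were nuclear-encoded subunits of complex IV. COX6A1 (chr12:120438113-120440730, build GRCh38.p14) had 632, 1319.8, 1314, 1582 and 1423 CPM in control granules 1 to 5, against 155, 167, 186, 134 and 163 CPM in control exosomes 1 to 5. The groups did not overlap, and the mRNA was 7.79-fold higher in control granules (log2 fold change 2.96 ± 0.23 SE, edgeR adjusted p = 6.45e-07). COX8A, another small subunit, had 182, 331, 364, 351 and 299 CPM in control granules, against 10.04, 38.7, 84.7, 115 and 98.7 CPM in control exosomes. It was 4.42-fold higher (log2 fold change 2.14 ± 0.49 SE, edgeR adjusted p = 0.00231), with a spread of more than 10-fold among the exosome libraries, of which control exosome 1 was the lowest. COX7A2 had 225, 210.4, 290.0, 331 and 278 CPM in control granules, against 56.4, 54.4, 60.7, 59.96 and 74.6 CPM in control exosomes. Its groups lay far apart, at a 4.36-fold difference (log2 fold change 2.13 ± 0.15 SE, edgeR adjusted p = 3.48e-07). COX7B, on the X chromosome, had 154, 199.5, 153, 209 and 200.1 CPM in control granules, against 29.5, 50.7, 45.7, 40.04 and 52.1 CPM in control exosomes. It was 4.20-fold higher (log2 fold change 2.07 ± 0.17 SE, edgeR adjusted p = 1.07e-06). COX5B, a subunit on the matrix side, had 355, 671, 598, 590.2 and 471 CPM in control granules, against 140.2, 119, 148, 128 and 128 CPM in control exosomes. The difference was 4.05-fold (log2 fold change 2.02 ± 0.17 SE, edgeR adjusted p = 1.10e-06), again with no overlap.

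In all, 10 of the 12 complex IV mRNAs were higher in control granules and 1 was lower, with a median log2 fold change of 1.85. COX7C, COX6C, NDUFA4 (named COXFA4 in RefSeq, and once counted as a complex I subunit), COX6B1 and COX7A2L were higher by log2 fold changes of 1.88, 1.81, 1.81, 0.70 and 0.69. COX5A was the one complex IV member called lower. It had 34.8, 39.5, 35.9, 38.8 and 27.1 CPM in control granules, against 86.3, 109.8, 103, 92.9 and 89.8 CPM in control exosomes, a 2.73-fold difference (log2 fold change -1.45 ± 0.13 SE, edgeR adjusted p = 1.95e-06). COX5A and COX5B, both matrix-facing subunits of the same enzyme, thus lay on opposite sides with no overlap of libraries in either. COX4I1, the largest nuclear-encoded subunit, averaged 35.8 ± 14.7 CPM in control granules and 46.97 ± 5.74 CPM in control exosomes (SD, n = 5 each; edgeR adjusted p = 0.161). COX7A2 and its paralog COX7A2L, which takes part in joining complexes into supercomplexes, differed in size of change. COX7A2L had 150.2, 228, 204, 393 and 273 CPM in control granules, against 188, 151, 139, 147 and 148 CPM in control exosomes, and these groups overlapped (log2 fold change 0.69 ± 0.22 SE, edgeR adjusted p = 0.0141). The ratio of COX7A2 to COX7A2L in TPM, taken within each library, was 2.45 to 4.44 in control granules and 0.497 to 0.934 in control exosomes. With the GC trend of each library taken out, COX7A2L had a log2 fold change of 0.23 and was not called (edgeR adjusted p = 0.363).

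Complex III split by the role of the subunit, a split made after the values were seen. All 5 small subunits were higher in control granules, with a median log2 fold change of 1.32, and all 4 of the core and redox proteins were lower, with a median of -1.05. UQCRC1 (chr3:48599002-48609646), a core protein, had 37.1, 31.4, 30.3, 29.2 and 26.5 CPM in control granules, against 187, 131, 137, 156 and 147 CPM in control exosomes. It was the most reduced of the 41 mRNAs, 4.91-fold lower with no overlap (log2 fold change -2.29 ± 0.13 SE, edgeR adjusted p = 1.14e-07). The other core protein UQCRC2, the Rieske protein UQCRFS1 and cytochrome c1 (CYC1) were lower by log2 fold changes of -0.71, -0.91 and -1.20. CYC1 overlapped between the groups and was not called when any of control exosomes 1 to 4 or control granules 1, 3, 4 and 5 was left out (edgeR adjusted p = 0.0399 with all libraries), nor after the GC correction (log2 fold change -0.61, edgeR adjusted p = 0.124). Among the small subunits, UQCRB, UQCRQ, UQCR10, UQCRH (the hinge protein next to cytochrome c1) and UQCR11 were higher by 1.73, 1.58, 1.32, 0.94 and 0.86 on the log2 scale. UQCRQ had 107, 156, 188, 224 and 221 CPM in control granules, against 47.8, 71.1, 66.4, 65.1 and 49.3 CPM in control exosomes. Within single libraries the ratio of UQCRQ to UQCRC1 in TPM was 10.8 to 29.3 in control granules and 0.660 to 1.56 in control exosomes, so mRNAs of one enzyme that stood near parity in exosomes stood more than 10-fold apart in granules.

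Complex II, the succinate dehydrogenase that also works in the tricarboxylic acid cycle, had no common direction. SDHA, the flavoprotein that oxidises succinate, had 55.9, 37.9, 50.2, 45.2 and 38.4 CPM in control granules, against 158, 145, 147, 155 and 125 CPM in control exosomes. It was 3.21-fold lower with no overlap (log2 fold change -1.68 ± 0.13 SE, edgeR adjusted p = 7.86e-07). SDHB, the iron-sulfur subunit, had 110.4, 174, 189, 360.2 and 280.1 CPM in control granules, against 139, 227, 195, 202 and 202 CPM in control exosomes. The SDHB groups overlapped and it was not called (log2 fold change 0.21 ± 0.27 SE, edgeR adjusted p = 0.518). The membrane anchors SDHC and SDHD moved in opposite directions. SDHC had 58.6, 111, 87.3, 150.4 and 92.9 CPM in control granules, against 211, 172, 181, 174 and 182 CPM in control exosomes (log2 fold change -0.88 ± 0.20 SE, edgeR adjusted p = 0.00246). SDHD had 182, 255, 262, 375 and 314 CPM in control granules, against 158, 147, 131, 149 and 152 CPM in control exosomes (log2 fold change 0.91 ± 0.17 SE, edgeR adjusted p = 0.000463). Neither anchor overlapped between the groups.

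In ATP synthase, 9 of 16 mRNAs were higher in control granules and 3 were lower, with a median log2 fold change of 0.54. The 3 lower ones all encode subunits of F1, the soluble catalytic part. ATP5F1D, the delta subunit, had 40.6, 119.9, 28.7, 40.9 and 13.8 CPM in control granules, against 271, 144, 164, 251 and 156 CPM in control exosomes. It was 4.04-fold lower (log2 fold change -2.02 ± 0.47 SE, edgeR adjusted p = 0.00253), and control granule 2 came closest to the exosome libraries. ATP5F1B, the beta subunit, had 412, 406, 479, 514 and 477 CPM in control granules, against 1308, 1314, 1236, 1284 and 1263 CPM in control exosomes. This was a 2.80-fold difference between 2 tight groups (log2 fold change -1.49 ± 0.11 SE, edgeR adjusted p = 5.27e-07). ATP5F1A, the alpha subunit that alternates with beta in F1, had 217, 193, 231, 256 and 263 CPM in control granules, against 509, 569.9, 488, 536 and 559.9 CPM in control exosomes (log2 fold change -1.20 ± 0.11 SE, edgeR adjusted p = 2.75e-06). The other F1 members, the gamma and epsilon subunits of the central stalk (ATP5F1C and ATP5F1E), were higher by 0.88 and 1.28 on the log2 scale, and both lost the call after the GC correction (ATP5F1C log2 fold change 0.26, edgeR adjusted p = 0.170; ATP5F1E 0.30, edgeR adjusted p = 0.0888).

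Of the peripheral stalk that holds the head still, ATP5PD had 192, 201, 382, 522 and 498 CPM in control granules, against 65.4, 88.9, 77.3, 74.9 and 99.8 CPM in control exosomes. It was 4.42-fold higher (log2 fold change 2.14 ± 0.29 SE, edgeR adjusted p = 4.72e-05), with no overlap. ATP5PO, the oligomycin sensitivity protein that joins stalk and head, and ATP5PF were higher by 1.38 and 0.45 on the log2 scale. ATP5PB averaged 381 ± 120.4 CPM in control granules and 320.4 ± 56.3 CPM in control exosomes (SD, n = 5 each) and was not called (edgeR adjusted p = 0.315). The small membrane subunits ATP5ME and ATP5MG, known from the interface of paired enzymes, were higher by 1.69 and 1.24, ATP5MF by 0.87 and ATP5IF1 by 0.48. COX6B1 lost its call without control exosome 1 or 2, and ATP5PF lost its call without any 1 of control exosomes 1, 3, 4 and 5. ATP5PF also had a log2 fold change of 0.07 after the GC correction (edgeR adjusted p = 0.697).

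**Figure D2:**
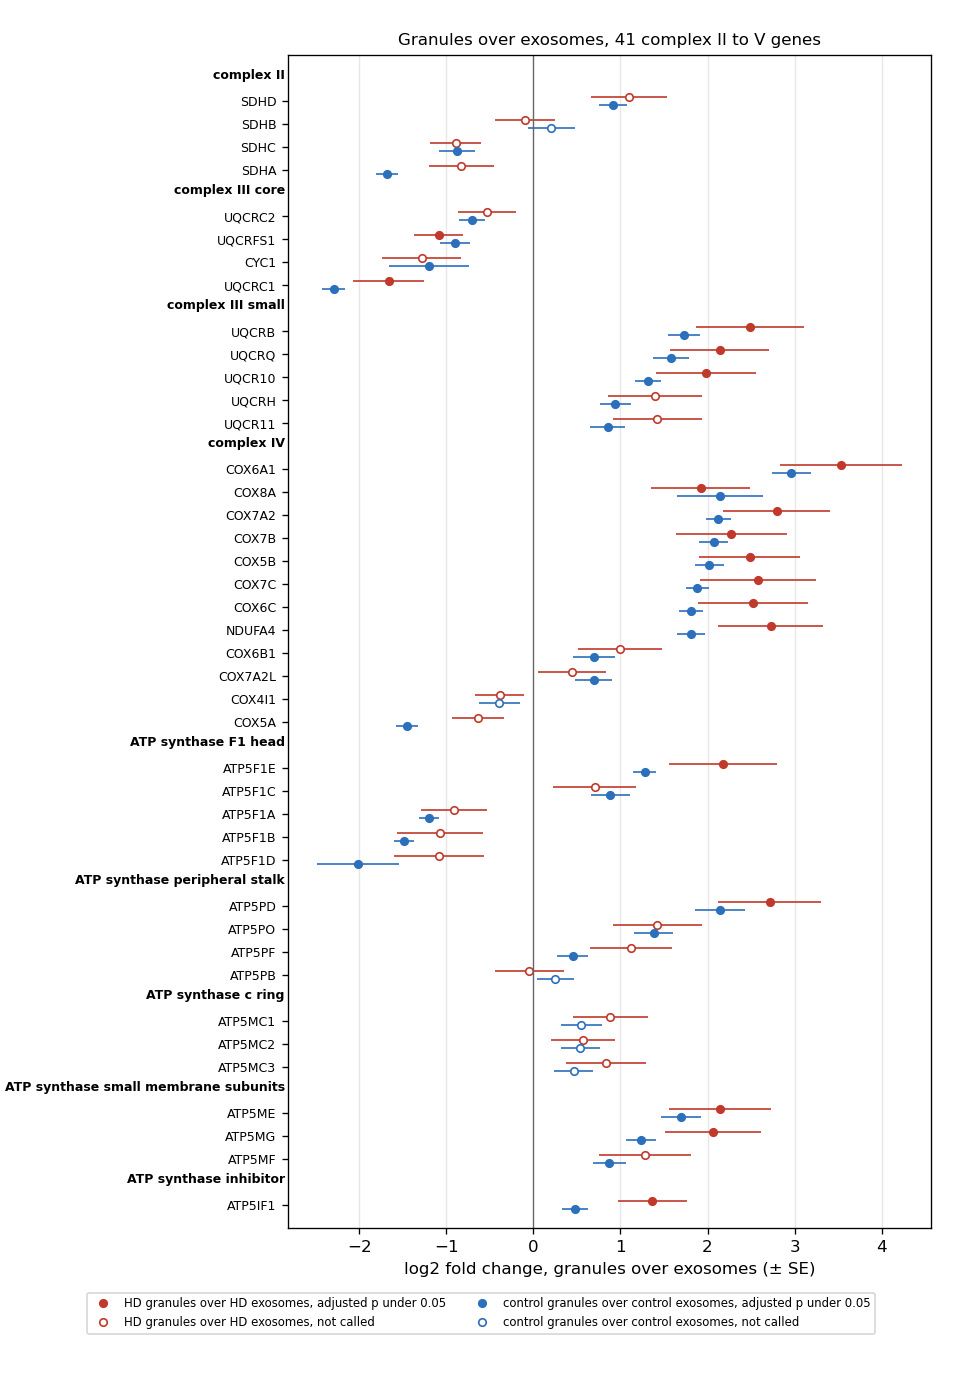
Log2 fold change (± SE) of granules over exosomes for each of the 41 genes, grouped by complex and role, in HD-induced cells (red) and control cells (blue), with filled points for an adjusted p under 0.05. The core and redox proteins of complex III lie left of 0 and its small subunits right of 0 in both, and COX6A1 lies farthest to the right, at 3.53 in HD-induced and 2.96 in control cells.

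The proton-carrying ring of ATP synthase is made of a single peptide that 3 genes encode on 3 chromosomes. Their messages were compared over the last 75 codons, which encode the mature peptide, in the main transcripts of GENCODE release 29. The sequences are shown because near-identical copies could share reads. They lie at chr17:48895222-48895766 (plus strand, ATP5MC1), chr12:53665317-53669260 (minus strand, ATP5MC2) and chr2:175178291-175179169 (minus strand, ATP5MC3) of build GRCh38, introns included in these spans, and capitals mark the positions at which the 3 genes are not all alike:
ATP5MC1: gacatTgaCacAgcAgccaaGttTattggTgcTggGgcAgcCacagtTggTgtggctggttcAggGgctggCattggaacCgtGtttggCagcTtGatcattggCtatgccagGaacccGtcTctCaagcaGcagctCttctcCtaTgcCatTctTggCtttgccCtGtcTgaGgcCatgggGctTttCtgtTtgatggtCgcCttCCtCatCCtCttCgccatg
ATP5MC2: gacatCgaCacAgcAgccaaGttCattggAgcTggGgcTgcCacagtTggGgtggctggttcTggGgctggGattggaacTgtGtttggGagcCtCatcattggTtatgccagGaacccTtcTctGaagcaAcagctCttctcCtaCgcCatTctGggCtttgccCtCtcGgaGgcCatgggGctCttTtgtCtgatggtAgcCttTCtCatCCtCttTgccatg
ATP5MC3: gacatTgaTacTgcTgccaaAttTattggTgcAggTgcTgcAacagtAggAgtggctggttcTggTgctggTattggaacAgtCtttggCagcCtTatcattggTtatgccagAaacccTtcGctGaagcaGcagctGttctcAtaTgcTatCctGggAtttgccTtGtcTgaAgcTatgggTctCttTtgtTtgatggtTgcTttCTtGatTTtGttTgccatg

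All 75 codons specify the same amino acids in the 3 genes, while only 173 of the 225 bases are shared by all 3. ATP5MC1 and ATP5MC2 share 200 bases, and ATP5MC3 shares 183 with each of them. The longest stretch without a difference between any pair was 17 bases, shorter than the reads of 100 bases. ATP5MC1 had 95.5, 272, 184, 265 and 168 CPM in control granules, against 160.3, 119.9, 137, 129.7 and 125 CPM in control exosomes. ATP5MC2 had 191, 427, 293, 510.4 and 348 CPM in control granules, against 311, 228, 229, 232 and 218 CPM in control exosomes. ATP5MC3 had 222, 307, 399.7, 621 and 412 CPM in control granules, against 318, 279, 273, 264 and 289.9 CPM in control exosomes. In all 3 genes control granule 1 lay below control exosome 1, the groups overlapped, and none was called. The log2 fold changes were close to each other, 0.55 ± 0.24 for ATP5MC1, 0.54 ± 0.22 for ATP5MC2 and 0.46 ± 0.22 for ATP5MC3 (SE; edgeR adjusted p = 0.0603, 0.0534 and 0.0859). The c ring was the one role of ATP synthase in which no member was called here, and this rested on the setting. All 3 were called higher with RLE or upper-quartile factors, with no filter on low counts and with transcripts of the protein-coding class alone. They were also called higher with DESeq2 and with limma voom. Over these edgeR, DESeq2 and limma fits the adjusted p was between 0.00813 and 0.0456. Without control granule 1 all 3 were called higher as well. With the GC trend taken out, ATP5MC1 (log2 fold change 0.96) and ATP5MC2 (0.95) were called and ATP5MC3 (0.07) was not (edgeR adjusted p = 0.00538, 0.00344 and 0.763).

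HD granules against HD exosomes ask the same question in HD-induced cells, in libraries that share no sample with the control comparison. Here 16 of the 41 mRNAs were higher in HD granules and 2 were lower (edgeR, adjusted p under 0.05 over 14431 genes), where 17.7% of all genes were called, 11.9% higher and 5.77% lower. Of all the genes called, 67.4% were higher, 81.0% when libraries were scaled with RLE size factors in place of TMM, 78.4% with DESeq2, 58.3% with the GC correction, 49.9% with no filter on low counts and 47.97% with limma voom. All 16 were also called higher in control granules and both lower ones also lower there. The median log2 fold change was 1.12 over the members and 0.17 over all genes. Over the 41 members, 39 had the same sign as in control cells, and Spearman's rank correlation between both sets of log2 fold changes was 0.95. It is a description over 41 genes, which share their libraries within each comparison. The overlap of calls, the signs and the correlation were not computed over all genes. They do not show whether these mRNAs differ from other genes in this, and the same holds for the overlap in the reduced set below.

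In this comparison the TMM factor was 10.44 for HD exosome 4 and 0.6327 to 0.927 for the other libraries. The CPM of those other libraries therefore lie above their plain shares of reads. COX6A1 had 1659, 2965, 271, 3239 and 5297 CPM in HD granules 1 to 5, against 219, 255, 247, 0 and 270.5 CPM in HD exosomes 1 to 5. Every granule library lay above every exosome library, HD granule 3 by a narrow margin, and the 0 belongs to the library of 1074 reads. The log2 fold change was 3.53 ± 0.70 SE (edgeR adjusted p = 0.00699), and 3.68 ± 0.41 SE without HD exosomes 2 and 4 and HD granule 3 (edgeR adjusted p = 0.000572). COX7A2 had 316, 940.2, 57.6, 884 and 669.9 CPM in HD granules, against 61.5, 78.8, 103, 0 and 95.9 CPM in HD exosomes (log2 fold change 2.79 ± 0.61 SE, edgeR adjusted p = 0.00974). NDUFA4 had 187, 624, 39.5, 572 and 496 CPM in HD granules, against 56.9, 67.0, 67.2, 0 and 45.7 CPM in HD exosomes (log2 fold change 2.72 ± 0.61 SE, edgeR adjusted p = 0.0101). In both mRNAs HD granule 3 was below the 4 deeper exosome libraries, and the other HD granule libraries were above them. ATP5PD had 361, 980.5, 107, 1121 and 1264 CPM in HD granules, against 102, 128, 95.04, 0 and 159 CPM in HD exosomes (log2 fold change 2.71 ± 0.60 SE, edgeR adjusted p = 0.00967). COX7C had 643, 2352, 126, 1960.1 and 1814 CPM in HD granules, against 203, 299, 194, 0 and 282 CPM in HD exosomes (log2 fold change 2.58 ± 0.67 SE, edgeR adjusted p = 0.0188). COX6C had 136, 397, 26.5, 402 and 309.7 CPM in HD granules, against 51.6, 50.5, 14.7, 0 and 60.8 CPM in HD exosomes (log2 fold change 2.52 ± 0.64 SE, edgeR adjusted p = 0.0171). In these 5 mRNAs other than COX6A1 the layout was alike, with 4 high granule libraries and HD granule 3 among the exosome values or below them.

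The other mRNAs called higher in HD granules were UQCRB (2.49), COX5B (2.49), COX7B (2.27), ATP5F1E (2.18), UQCRQ (2.14), ATP5ME (2.14), ATP5MG (2.06), UQCR10 (1.98), COX8A (1.92) and ATP5IF1 (1.37), each given with its log2 fold change. The 2 lower ones belong to complex III. UQCRC1 had 41.1, 30.7, 97.8, 31.8 and 27.5 CPM in HD granules, against 188, 147, 182, 0 and 85.3 CPM in HD exosomes (log2 fold change -1.66 ± 0.41 SE, edgeR adjusted p = 0.0158). UQCRFS1 had 74.4, 77.8, 55.05, 65.1 and 91.4 CPM in HD granules, against 143, 147, 206, 0 and 145 CPM in HD exosomes (log2 fold change -1.09 ± 0.28 SE, edgeR adjusted p = 0.0196). Both mRNAs overlapped between the groups, through the empty HD exosome 4 and, for UQCRC1, also through HD granule 3. With transcripts of the protein-coding class alone, neither was called (edgeR adjusted p = 0.176 for UQCRC1 and 0.0511 for UQCRFS1).

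Single libraries decided how many members were called here. Without HD exosome 4 the counts were 14 higher and 5 lower. Without HD exosomes 2 and 4 and HD granule 3, a choice made with earlier results known, they were 26 higher and 8 lower, where 35.0% of all genes were called, 18.6% higher and 16.4% lower, and 24 of the 26 and all 8 were also called in the same direction in control cells. In that reduced set SDHA (-1.42), SDHC (-0.84), ATP5F1A (-1.16), ATP5F1B (-1.52), COX5A (-0.94) and CYC1 (-1.959) joined UQCRC1 (-2.28) and UQCRFS1 (-1.16) among the lower mRNAs, each given with its log2 fold change. Leaving out HD granule 3 alone gave 25 higher and 8 lower. Leaving out HD exosome 1, 2 or 3 gave 8, 10 and 5 higher, and leaving out HD granule 2, 4 or 5 gave 8, 9 and 8 higher. No member was called lower without HD exosome 3, and 1 was called lower without HD granule 2 or 4. Calls over all genes were not counted with a single library left out. These counts of members thus cannot be told apart from a change in calls over all genes. COX8A lost its call without any 1 library other than HD granule 3. UQCR10, COX7B and ATP5F1E lost theirs without any 1 of HD exosomes 1, 2, 3 and 5 and HD granules 2, 4 and 5. With the replicate number as a block and the GC correction, UQCR10, COX7B, COX7C, COX8A, NDUFA4, ATP5F1E and ATP5ME were not called (edgeR adjusted p between 0.0501 and 0.356).

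The direction of the members followed the size of the protein they encode, a feature that the choice of genes did not use. Of the 31 members whose longest annotated protein is under 250 residues, 24 were higher in control granules, 3 were lower (SDHC, COX5A and ATP5F1D) and 4 were not called (COX4I1 and the 3 c-ring genes). Of the 10 members with 250 residues or more, 1 was higher (ATP5F1C), 7 were lower and 2 were not called (SDHB and ATP5PB). The cut at 250 was set after the values were seen. Over all genes with a coding sequence, the shares did not part in this way: 30.8% were higher and 34.0% lower below 250 residues, and 27.3% were higher and 35.2% lower at 250 or more. Spearman's rank correlation between protein length and log2 fold change was -0.68 over the 41 members and 0.09 over 13193 genes.

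Transcript length behaved partly alike. Of the 19 members whose most read transcript is under 700 bases, 16 were higher in control granules and 1 was lower, where 56.5% of 441 protein-coding genes of that length were higher and 15.2% lower. From 700 to under 1500 bases, 6 of 13 members were higher and 3 lower, where 26.5% of genes were higher and 36.8% lower. From 1500 to under 3000 bases, 2 of 7 members were higher and 5 lower, where 17.8% of genes were higher and 46.3% lower. At 3000 bases or more, 1 of 2 members was higher (ATP5F1E) and 1 lower (UQCRFS1), where 32.3% of genes were higher and 29.7% lower. NDUFA4 (2035 bases) and ATP5F1E (3610 bases) encode short proteins on long messages and were higher in control granules. Spearman's rank correlation with transcript length was -0.50 over the members and 0.16 over 13124 protein-coding genes. Spearman's rank correlation with GC content was -0.34 over the members and -0.52 over 13093 genes. With a GC trend taken out of each library, 23 members were called higher and 9 lower in control granules, where 25.8% of all genes were higher and 35.2% lower. The fragment length implied by the files was 167 to 186 bases in HD granules and 172 to 185 bases in control granules, against 157 to 185 bases in HD exosomes and 170 to 176 bases in control exosomes.

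**Figure D3:**
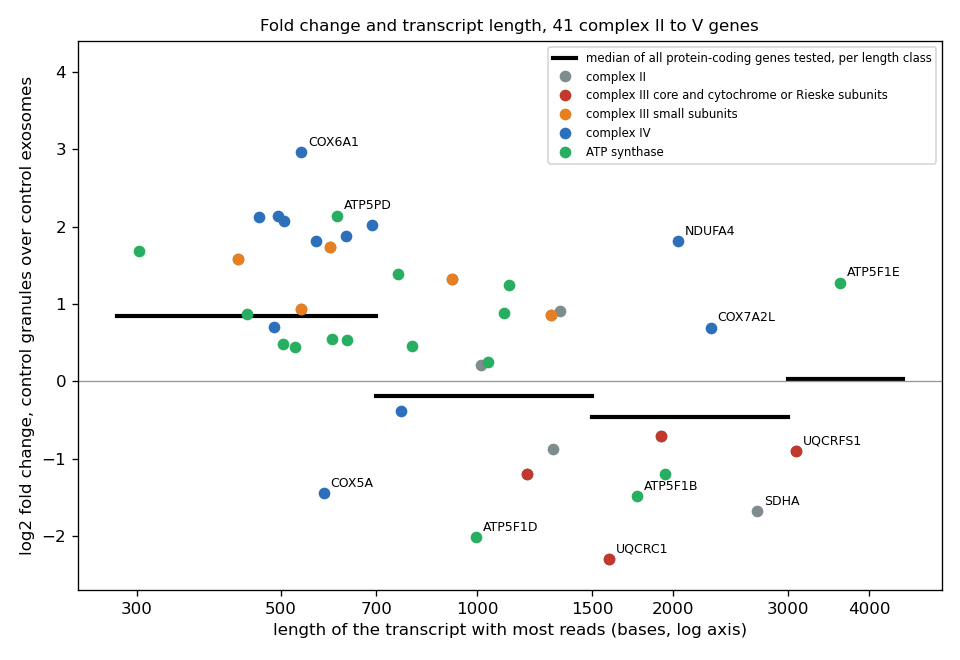
Log2 fold change of control granules over control exosomes for the 41 genes against the length of their most read transcript (bases, log axis), coloured by complex, with the median of all protein-coding genes in 4 length classes as black lines. Members under 700 bases lie mostly above the median line of 0.85, with COX5A the one called lower, while NDUFA4 and ATP5F1E lie above 0 at 2035 and 3610 bases.

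Many genes of the respiratory chain carry promoter elements for the activators NRF1 and the ETS factors (such as GABP, also called NRF2) and for YY1. Promoter windows of 250 bases before to 50 after the gene start were matched in RefSeq (GRCh38.p14) for 33 of the 41 genes and searched on both strands for NRF1 core GCGCATGC, ETS core CCGGAAG and YY1 core AAGATGGC. No match in the printed sequences overlaps another. At least 1 of the 3 was present in 19 of the 33 members (57.6%) and in 14.9% of all 35116 windows. The NRF1 core was in 8 members (24.2%, against 3.05% of all windows), the ETS core in 14 (42.4%, against 10.3%) and the YY1 core in 5 (15.2%, against 2.89%). Among members called higher in control granules, 6 of 22 windows held the NRF1 core, 12 of 22 the ETS core and 2 of 22 the YY1 core. Of the 6 windows of members called lower, none held the NRF1 or ETS core and 1 held the YY1 core, and the difference between these members was not tested. The 250 bases upstream of COX6A1 (chr12:120437863-120438112, plus strand), COX5B (chr2:97645812-97646061, plus strand) and UQCRC1 (chr3:48609647-48609896, minus strand) are shown, as those of the most raised mRNA, of another raised complex IV mRNA and of the most reduced mRNA, with matches in capitals:
COX6A1: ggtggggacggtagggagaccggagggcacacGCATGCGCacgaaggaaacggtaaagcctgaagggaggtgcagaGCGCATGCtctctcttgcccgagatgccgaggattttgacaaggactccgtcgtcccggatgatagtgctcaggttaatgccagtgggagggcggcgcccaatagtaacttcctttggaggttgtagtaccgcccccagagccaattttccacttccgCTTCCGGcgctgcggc
COX5B: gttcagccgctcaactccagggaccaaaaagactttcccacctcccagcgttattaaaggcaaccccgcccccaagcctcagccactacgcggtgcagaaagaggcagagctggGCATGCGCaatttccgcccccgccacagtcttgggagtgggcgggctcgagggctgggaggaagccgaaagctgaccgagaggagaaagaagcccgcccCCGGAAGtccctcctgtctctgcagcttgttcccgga
UQCRC1: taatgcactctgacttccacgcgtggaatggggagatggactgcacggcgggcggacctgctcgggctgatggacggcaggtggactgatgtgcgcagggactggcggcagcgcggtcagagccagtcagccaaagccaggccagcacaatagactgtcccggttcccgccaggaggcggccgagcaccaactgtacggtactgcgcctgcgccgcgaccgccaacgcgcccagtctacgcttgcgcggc

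COX6A1 held 2 NRF1 cores, of which 1 was on the other strand, and an ETS core on the other strand close to the start. COX5B held 1 NRF1 core on the other strand and 1 ETS core. UQCRC1 held none of the 3 in this stretch, while its full window held the YY1 core after the start. The windows of COX7A2 and COX7B, complex IV mRNAs raised more than COX5B, held none of the 3. That of COX8A, also raised more than COX5B, held the ETS core alone. The printed stretches thus do not stand for all raised members. These matches describe the letters, and the RNA data do not test them.

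Reads of most members fell on transcripts that the files class as protein-coding. The median share of such reads was at least 90% in 27 members in HD granules and 27 in control granules, against 28 in HD exosomes and 31 in control exosomes. For SDHA the share was 50.8 to 88.6% in HD granules and 52.3 to 74.7% in control granules, against 64.5 to 100% in HD exosomes and 92.0 to 98.6% in control exosomes. Retained-intron transcripts took 25.1 to 47.7% of SDHA reads in control granules. CYC1 had the same layout, with 76.6 to 84.4% protein-coding in control granules and 92.1 to 95.4% in control exosomes. In 2 members under 50% of reads were protein-coding in every group. ATP5PB reads lay mostly on transcripts without a defined coding sequence, at 80.2 to 90.5% in control granules and 66.6 to 82.7% in control exosomes. COX6C reads lay mostly on transcripts classed for nonsense-mediated decay, at 77.3 to 84.3% in control granules and 54.3 to 86.2% in control exosomes. How reads are split between transcripts of a gene is an estimate. Restricted to protein-coding transcripts, 28 members were higher and 10 lower in control granules, where 31.6% of all genes were higher and 29.5% lower. Annotated pseudogene copies took 18.2% of the reads on SDHA and its copies together and at most 2.87% (UQCRFS1) for every other member, and adding them changed no count of members in the control comparison.

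Related lists set the members in context in the control comparison, where 30.0% of all genes tested were higher and 32.5% lower. The median log2 fold change was -0.02 over all genes, 0.11 over the assembly factors and -0.11 over the regulators of mitochondrial biogenesis. The counts of these 2 lists are thus not read as a direction. Of 37 nuclear-encoded complex I subunits, 21 were higher in control granules and 9 lower, with a median log2 fold change of 0.93. The small subunits NDUFB3, NDUFA1 and NDUFC1 (1.72, 1.97 and 1.99) were higher, and NDUFV1 and NDUFV3 (-1.80 and -1.24) were lower. Of 42 assembly factors of complexes II to V, 17 were higher and 14 lower, with COX16, CMC1 and PET100 (1.55, 1.70 and 2.02) higher and OXA1L, COX15 and COA7 (-1.49, -1.25 and -1.90) lower. ATP5MK and ATP5MJ, further small ATP synthase subunits, were higher (1.80 and 1.34), the only ones of 9 other subunits and isoforms with enough counts to be tested. The tricarboxylic acid cycle enzymes went the other way, with 1 of 14 higher (SUCLA2, 0.63) and 9 lower, among them MDH2 (-2.40), CS (-1.64) and DLST (-1.64), and a median of -1.21. Of 8 mitochondrial carriers and electron carriers, 6 were lower, among them VDAC1 (-1.45), SLC25A4 (-1.83) and SLC25A5 (-1.58), and cytochrome c (CYCS, 0.52) was higher. Of 11 regulators of mitochondrial biogenesis, PPARGC1A, TFAM and GABPA (0.77, 0.59 and 0.45) were higher and 4 were lower. The lower ones with the smallest p were POLRMT (mean 27.6 CPM in control granules and 110.3 CPM in control exosomes), CLUH (-1.86) and TFB2M (-0.78). CLUH is an RNA-binding protein of nuclear-encoded mitochondrial mRNAs. Of the 6 complex III to V mRNAs that mitochondria encode themselves, MT-ATP6 was higher (3.29) and MT-CO2 lower (-5.57). All 6 tested HEK293 markers were lower in control granules, among them KRT18 (-2.21), VIM (-1.19) and IGF2BP1 (-1.19). Of the other cells' markers, DSC3 was higher (0.98), while 4 of 5 tested keratinocyte markers, among them DSG1 (-6.67), KRT5 (-7.00) and KRT1 (-6.35), and 4 of 5 tested blood markers, among them ALAS2 (-8.32), HBA1 (-2.86) and PTPRC (-3.35), were lower. These values are log2 fold changes of genes called by edgeR.

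HD exosomes against control exosomes asked whether vesicle content differs with HD. None of the 41 mRNAs and none of the 12936 genes tested was called (0% called), while 3 members and 980 of all genes had an unadjusted edgeR p under 0.05. DESeq2 and limma voom called none either. Other edgeR settings did call genes, with 45 higher and 251 lower with the replicate number as a block, 39 higher and 53 lower with the block and a GC correction, 141 higher and 134 lower with no filter on low counts, and 2 higher and 2 lower in 1 fit of all 4 groups. The median log2 fold change was 0.16 over the members and -0.03 over all genes. The TMM factor was 9.083 for HD exosome 4 and 0.6277 to 0.8385 for the other libraries, whose CPM again lie above plain shares of reads. COX7B had 62.5, 119, 123, 0 and 83.1 CPM in HD exosomes 1 to 5, against 35.1, 62.1, 57.7, 49.02 and 65.0 CPM in control exosomes 1 to 5 (log2 fold change 0.82 ± 0.25 SE, edgeR adjusted p = 0.598). Apart from the empty library, 3 of 4 HD libraries lay above all control libraries. ATP5ME had 25.6, 31.7, 24.7, 0 and 34.5 CPM in HD exosomes, against 9.73, 21.7, 17.7, 14.8 and 19.2 CPM in control exosomes (log2 fold change 0.80 ± 0.27 SE, edgeR adjusted p = 0.598). ATP5MF had 126, 127, 162, 0 and 124 CPM in HD exosomes, against 69.9, 87.8, 98.7, 101 and 88.2 CPM in control exosomes (log2 fold change 0.57 ± 0.20 SE, edgeR adjusted p = 0.598). For these ATP synthase subunits the 4 HD libraries with reads were above all control libraries. The share of all genes with this layout was not counted, and these mRNAs were named for having the smallest p, so no HD effect is read from it. On the lower side, ATP5F1D had 258, 115, 157, 0 and 38.1 CPM in HD exosomes, against 322, 176, 207, 307 and 195 CPM in control exosomes (log2 fold change -0.78 ± 0.41 SE, edgeR adjusted p = 0.598). CYC1 (-0.48) and SDHA (-0.33) followed, and all 3 overlapped between the groups. COX7B was called higher without HD exosome 1 (log2 fold change 0.98, edgeR adjusted p = 0.0358) and with the replicate number as a block (log2 fold change 0.78, edgeR adjusted p = 0.0440). All 6 keratinocyte markers tested had an unadjusted edgeR p under 0.05 in the same comparison, with a median log2 fold change of 2.77.

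HD granules against control granules gave no called member and no called gene of 16750 (0% called). No member and 215 of all genes had an unadjusted edgeR p under 0.05, while DESeq2 called 4 genes and limma voom 2 higher and 3 lower, none of them a member. The median log2 fold change was 0.37 over the members and 0.04 over all genes. ATP5ME had 38.5, 143, 11.3, 123 and 138 CPM in HD granules 1 to 5, against 27.8, 38.2, 42.03, 52.8 and 50.4 CPM in control granules 1 to 5 (log2 fold change 1.10 ± 0.56 SE, edgeR adjusted p = 1.00). HD granules 2, 4 and 5 were more than 2-fold above every control granule, HD granule 1 lay within their range and HD granule 3 below it. ATP5PF, with 72.6, 241, 31.5, 172 and 141 CPM in HD granules and 58.1, 60.4, 87.4, 108 and 84.5 CPM in control granules, had the same libraries above, within and below the control range (log2 fold change 0.72 ± 0.45 SE, edgeR adjusted p = 1.00). COX5A had 32.8, 47.2, 70.5, 39.0 and 33.9 CPM in HD granules, against 33.1, 39.3, 34.6, 37.0 and 26.9 CPM in control granules, and here HD granule 3 was the highest (log2 fold change 0.39 ± 0.23 SE). SDHC (-0.30 ± 0.25), CYC1 (-0.75 ± 0.62) and UQCRFS1 (-0.25 ± 0.21) had the smallest p among members with a lower mean, as log2 fold changes with their SE, and all overlapped. With standard errors of 0.56 for ATP5ME and 0.62 for CYC1, differences of this size could not be detected at the spread of these libraries.

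The HD effect in granules less the HD effect in exosomes was tested as an interaction over all 20 libraries. By edgeR it called 3 of 16154 genes (0.0186%), 0.00619% positive and 0.0124% negative, and none of the 41 members. An unadjusted edgeR p under 0.05 was found for 1 member (COX5A) and 778 of all genes, while DESeq2 called 6 genes positive and 10 negative and limma voom 2 negative, none of them a member. Among members with a positive difference, COX5A (0.70 ± 0.31 SE), SDHA (0.75 ± 0.40 SE) and ATP5IF1 (0.77 ± 0.42 SE) had the smallest p, as log2 differences with an edgeR adjusted p of 0.875 each. Among those with a negative one, ATP5PB (-0.44 ± 0.42 SE), SDHB (-0.44 ± 0.43 SE) and UQCRFS1 (-0.30 ± 0.30 SE) came first (edgeR adjusted p = 0.902, 0.902 and 0.905). A difference of the HD effect between compartments was thus not detectable for any of these mRNAs at this depth and spread.

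**Figure D4:**
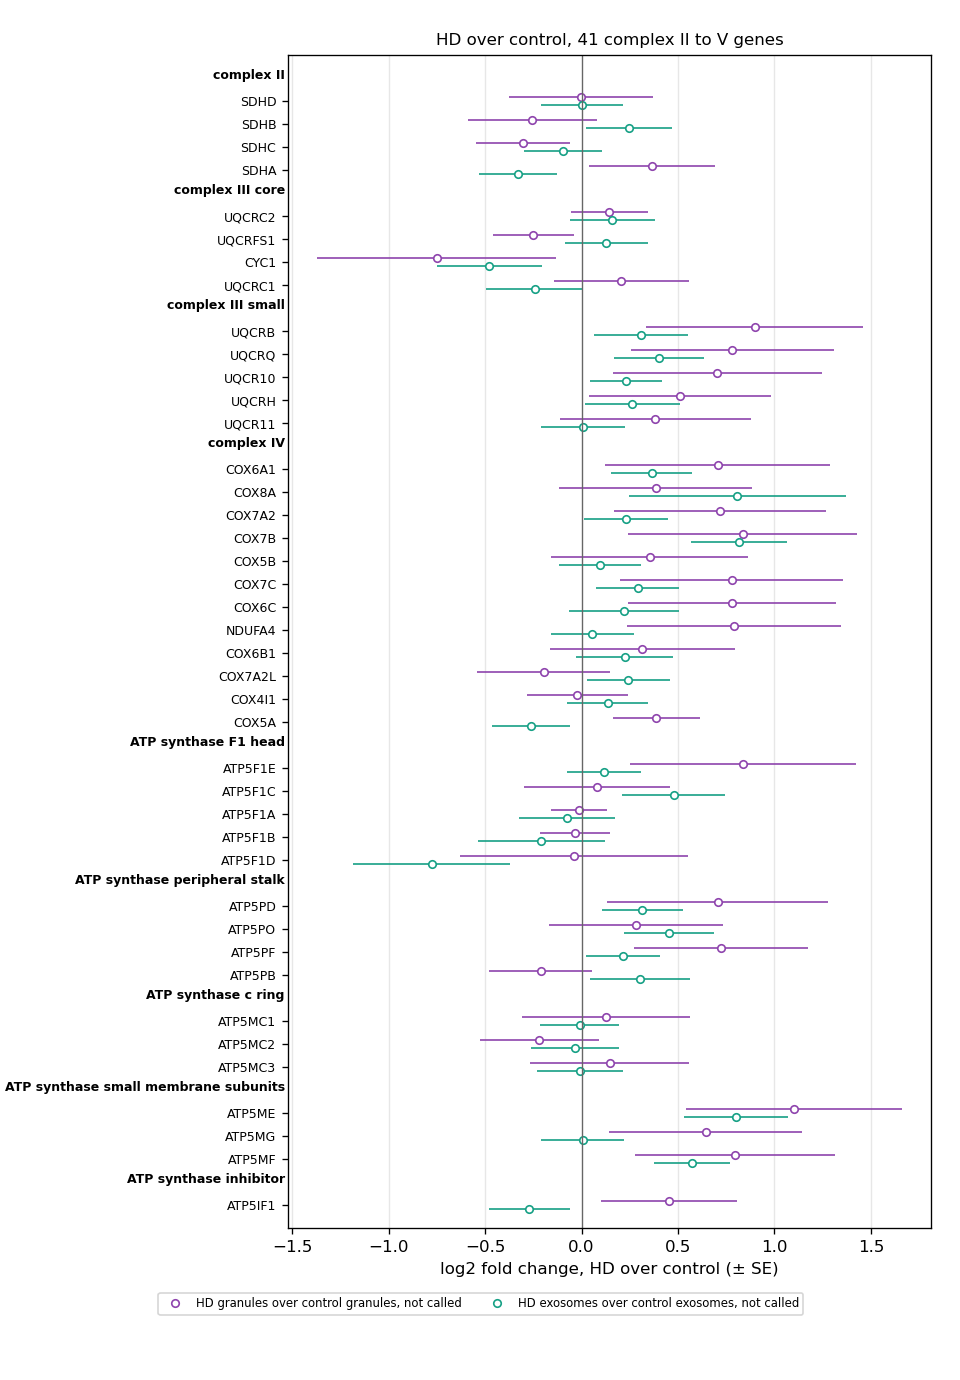
Log2 fold change (± SE) of HD over control for each of the 41 genes, grouped by complex and role, in granules (purple) and in exosomes (green), with open points because no gene was called in either comparison. Standard errors in granules are wide for the small subunits, such as 0.56 for ATP5ME, and narrow for ATP5F1A.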

How the data were processed

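Per the submitters' processing notes, reads were trimmed and quantified by the authors with Trimmomatic, cutadapt, FastQC and Salmon against GRCh38.p14. Neither their versions nor the annotation used are given in the sources used here. The authors deposited, for each library and transcript, estimated counts (Salmon, not scaled for depth) and TPM, which is scaled to effective length and to the whole library, entries without a gene name included.

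For the values here, both were summed per gene ID, transcripts without a gene name were left out, and estimated counts were rounded. Genes passed filterByExpr and were tested with edgeR 4.0.16 (R 4.3.3) by robust quasi-likelihood with TMM scaling, in the libraries of each comparison; adjusted p-values (Benjamini-Hochberg) are over all genes tested, and a call is an adjusted p under 0.05. SE is the absolute log2 fold change over the root of F. Alternatives used DESeq2 1.42.0 and limma 3.58.1. On simulated data with known changes the test was checked before use. GC content, coding sequence and protein length came from GENCODE release 29, promoters from RefSeq.

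The 41 genes and all other lists were chosen with earlier results of these data known. Named with values per library are the 6 called members of largest absolute log2 fold change per comparison and direction, or else the 3 of smallest p per direction, the paralogs, complex II and the highest and lowest TPM; UQCRQ and the genes of the transcript class paragraph were added after their values were seen. Of the complex I genes that this rule names, 1 is not reported here. P-values measure the spread between the libraries, and counts from PCR-amplified reads without molecular identifiers are not independent molecules.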

Additional observations from a re-analysis of the deposited data

Results flagged for a closer look

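TPM of each gene in each group of 5 libraries was searched for a highest or lowest library that stands far from the other 4. This was so in 11 of 164 groups, where chance flags about 1 in 20. HD granule 3 was the library far above the other HD granules in 9 of the 11. Its TPM was 39.2 for SDHA, 46.2 for SDHC, 38.4 for UQCRC1, 12.2 for UQCRFS1, 58.8 for CYC1, 44.4 for COX4I1, 128 for COX5A, 124.7 for ATP5F1A and 323 for ATP5F1B. These 9 mRNAs are 8 of the 10 mRNAs called lower in control granules than in control exosomes, and COX4I1, which was not called. The summed HEK293 markers, also lower in control granules, were 548 TPM in HD granule 3 and 69.1 to 94.5 TPM in the other HD granules. The high place of HD granule 3 holds on the TPM scale and in part in CPM, where it was the highest HD granule for 6 of the 9 and the lowest for SDHC and UQCRFS1. UQCRFS1 had 55.05 CPM in HD granule 3 and 65.1 to 91.4 CPM in the other HD granules. Over the complex II mRNAs, HD granule 3 had the highest summed TPM of the HD granules (237) and the lowest share of reads (0.0393%), and the same was so for the ATP synthase F1 head (658.5 TPM and 0.129%). What sets this library apart was not tested. In control exosomes, UQCRFS1 stood apart at 18.4 TPM in library 4 and NDUFA4 at 17.4 TPM in library 5.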

How the results depend on the processing

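No called member changed direction under any alternative that could be run, nor did any member named for its small p where none was called. Members named without a call in the control comparison, such as SDHB, COX4I1 and ATP5PB, were not part of this check. In control granules against control exosomes, members called stayed between 21 and 28 higher and 9 and 11 lower under all other settings. Of all genes, 24.7 to 34.5% were higher and 22.7 to 37.6% lower under these settings, and 15.2% and 12.9% with no filter on low counts. With 1 library left out, between 24 and 28 members were higher and 9 and 10 lower. In HD granules against HD exosomes (16 higher, 2 lower), counts were 28 higher and 9 lower with limma voom and quality weights, and 26 and 8 without HD exosomes 2 and 4 and HD granule 3. There the count of lower members was 4 with DESeq2, 6 with a replicate block, 7 with the GC correction, 6 with both the block and GC correction, 7 with 1 fit of all 4 groups and 0 with protein-coding transcripts only. These counts stand against calls over all genes of 11.9% higher and 5.77% lower in the fit reported, 20.04% and 21.7% with limma voom, 12.4% and 3.43% with DESeq2, 17.95% and 9.81% with the block, 16.5% and 11.8% with the GC correction, 15.8% and 9.75% with both, 21.3% and 13.8% with 1 fit of all 4 groups, and 9.34% and 5.06% with protein-coding transcripts only. With 1 library left out the count of members ran from 5 to 25 higher and from 0 to 8 lower. Calls over all genes were not counted for the fits with 1 library left out, here or in the control comparison. The cause was not tested. In HD exosomes against control exosomes, 1 member (COX7B) was called higher with a replicate block, and 0 to 1 higher and 0 lower with 1 library left out. HD granules against control granules and the difference of HD effects gave 0 calls of members under all settings.

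Replicate numbers were to be taken as a pairing only where the deviations of every same-numbered pair from their group means had a correlation over 0.1, and no comparison met this. The correlations ran from -0.266 to 0.352 in control granules against control exosomes, from -0.0928 to 0.383 between the exosome groups and from -0.175 to 0.608 between the granule groups. In HD granules against HD exosomes they ran from 0.159 to 0.346 in 4 pairs and were 0.00575 in the pair with the empty HD exosome 4. Replicate 5 had the highest correlation in all 4 comparisons. With the replicate block the control comparison gave 23 members higher and 10 lower, where 29.6% of all genes were higher and 33.3% lower. Upper-quartile factors could not be computed for the comparisons that hold HD exosome 4. The all-gene median log2 fold change moved from -0.02 with TMM to 0.11 with upper-quartile factors in control cells, and from 0.17 with TMM to 0.32 with RLE factors in HD cells; fold changes in the report are to be read against the TMM medians. Depth limits the HD exosome libraries most.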
